A study of Mus musculus with 5 samples.

Results

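The 10 genes described here encode Ki-67 and topoisomerase II alpha, the protein and the enzyme that shape chromosomes at cell division, and the subunits of the condensin complexes. They were taken by symbol from a table of 55357 genes: Mki67, Top2a, Smc2, Smc4, Ncapd2, Ncapg, Ncaph, Ncapd3, Ncapg2 and Ncaph2. All 10 were found, and all 10 had enough reads to be among the 15665 genes tested.

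The RNA came from back-skin hair follicle stem cells of mice aged 75 days, gated in the sort on EpCAM and CD34, on high α6-integrin and on the absence of Sca1. The 3 PRC1 i2KO libraries (replicates 1, 2 and 3) carried the genotype K15-CrePR1:Ring1a-/-, Ring1bflox/flox. The 2 Control libraries (replicates 1 and 3) carried Ring1a-/-, Ring1bflox/flox without Cre. Both groups received 1% RU-486 topically for 10 days, starting at postnatal day 50, and back skin was taken 15 days after this induction ended. Ring1a and Ring1b (genes Ring1 and Rnf2) are the catalytic subunits of PRC1, the Polycomb complex that ubiquitinates histone H2A. By genotype both groups lacked Ring1a, and they differed in the presence of Cre, which a keratin 15 promoter drives and RU-486 activates to delete Ring1b. Whether each library came from its own animal is not stated, so the p-values speak of the spread among these libraries only, and that spread may be technical.

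Rnf2, the gene targeted for deletion, had 48.1, 46.6 and 50.2 CPM (counts scaled to library size) in PRC1 i2KO replicates 1, 2 and 3, against 67.9 and 57.7 CPM in Control replicates 1 and 3. Its log2 fold change was -0.37 (SE 0.12, edgeR adjusted p = 0.0363), a call that did not hold without Control replicate 1 (adjusted p = 0.251), PRC1 i2KO replicate 1 (0.0993) or PRC1 i2KO replicate 2 (0.118). Ring1, deleted in both groups per the labels, still had 19.6, 28.6 and 24.8 CPM in PRC1 i2KO and 30.3 and 27.5 CPM in Control. Reads summed over a gene do not show whether an exon was deleted, so neither gene checks the labels. The labelled cell type was set against its markers as well. Of 10 bulge markers 8 fell and 0 rose, with a summed level of 5117 to 7132 CPM in PRC1 i2KO against 20635 to 21668 CPM in Control. Cd34, which defines the sort gate, was at 11.0, 12.3 and 37.2 CPM in PRC1 i2KO and at 1548 and 1697 CPM in Control (edgeR adjusted p = 0.00653, or 0.0567 and 0.0528 with 1 Control left out). The transcript of this gate marker was thus far lower in the PRC1 i2KO libraries, although both groups were sorted on its protein.

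Condensins are ring-shaped motors that fold chromatin into compact mitotic chromosomes. The SMC2 and SMC4 ATPases are shared by both complexes. Condensin I adds the subunits CAP-H, CAP-G and CAP-D2 and reaches chromosomes after the nuclear envelope breaks down, whereas condensin II adds CAP-H2, CAP-G2 and CAP-D3 and is in the nucleus through the cell cycle. Topoisomerase II alpha untangles DNA strands, and Ki-67 coats mitotic chromosomes and keeps them apart. Mki67 and Top2a transcripts are widely used as marks of cycling cells, and bulge stem cells are known to be quiescent through most of the hair cycle.

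Many genes of mitosis are known to be controlled by promoter elements that bind cell cycle repressor complexes, NF-Y or E2F, so the start-site regions of these genes were read for 3 short motifs. RefSeq windows (build GRCm38.p6) of 300 bases, from 250 before to 50 after the annotated start, were at hand for 9 of the genes, with 2 windows for Ncapd3, while the deposited values themselves rest on build mm39. The motifs, searched on both strands, were the CHR element (TTTGAA), the NF-Y box (CCAAT) and an E2F site (TTCCCGC or TTGGCGC). The reverse of CCAAT shares 4 letters with TTGGCGC and could overlap it, but 0 matches overlapped in these windows. The windows of Mki67, Ncapg and Ncapd2 are shown because each holds all 3 motifs, that of Top2a because it holds the most NF-Y boxes, and that of Ncaph2 because it holds none. Matched letters are in capitals.
Mki67 (chr7:135716330-135716629, minus strand): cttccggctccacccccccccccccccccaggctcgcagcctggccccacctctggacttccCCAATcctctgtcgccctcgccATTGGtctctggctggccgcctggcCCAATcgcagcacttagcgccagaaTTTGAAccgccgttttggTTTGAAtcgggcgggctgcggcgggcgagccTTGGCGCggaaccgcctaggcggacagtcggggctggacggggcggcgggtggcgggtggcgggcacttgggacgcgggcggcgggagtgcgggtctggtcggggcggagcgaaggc
Top2a (chr11:99024140-99024439, minus strand): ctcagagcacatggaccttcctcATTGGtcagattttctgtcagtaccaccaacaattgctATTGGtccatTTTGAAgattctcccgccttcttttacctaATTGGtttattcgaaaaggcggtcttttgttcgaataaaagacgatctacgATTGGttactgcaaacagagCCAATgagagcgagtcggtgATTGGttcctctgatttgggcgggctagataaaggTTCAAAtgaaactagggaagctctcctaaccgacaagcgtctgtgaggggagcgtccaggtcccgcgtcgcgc
Ncapg (chr5:45669675-45669974, plus strand): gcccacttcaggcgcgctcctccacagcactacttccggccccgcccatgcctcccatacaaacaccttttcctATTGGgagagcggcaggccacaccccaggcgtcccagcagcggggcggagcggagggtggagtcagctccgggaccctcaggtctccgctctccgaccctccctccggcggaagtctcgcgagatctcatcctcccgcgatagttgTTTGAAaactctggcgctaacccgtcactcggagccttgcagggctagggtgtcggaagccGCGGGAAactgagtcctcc
Ncapd2 (chr6:125191537-125191836, minus strand): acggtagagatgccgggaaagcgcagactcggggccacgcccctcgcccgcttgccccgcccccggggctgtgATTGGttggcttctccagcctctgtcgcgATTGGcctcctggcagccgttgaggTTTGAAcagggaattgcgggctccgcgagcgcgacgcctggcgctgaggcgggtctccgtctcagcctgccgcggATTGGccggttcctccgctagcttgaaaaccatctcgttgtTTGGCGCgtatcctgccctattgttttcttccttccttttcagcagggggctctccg
Ncaph2 (chr15:89355469-89355768, plus strand): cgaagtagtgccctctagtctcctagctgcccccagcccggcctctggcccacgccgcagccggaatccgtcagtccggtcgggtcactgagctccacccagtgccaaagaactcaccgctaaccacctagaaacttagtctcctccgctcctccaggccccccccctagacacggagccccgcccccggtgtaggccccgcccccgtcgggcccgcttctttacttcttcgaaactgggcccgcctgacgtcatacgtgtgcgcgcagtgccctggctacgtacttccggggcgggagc

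Of the 10 windows, 7 held a CHR element, 5 an NF-Y box and 6 an E2F site. Of all 32851 windows in the same table, 17.9%, 37.4% and 6.81% held these motifs, and 0.298% held all 3. The window of Mki67 held 3 NF-Y boxes between 188 and 141 bases before the start and 2 CHR elements at 116 and 98 bases before it. That of Top2a held 6 NF-Y boxes and 2 CHR elements, the nearer of which lay 23 bases before the start. In Ncapg a CHR element lay 30 bases before the start, and in Ncapg2 one lay 18 bases before it. A match of letters is a description of the window and does not show that a factor binds there.

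**Figure D1:**
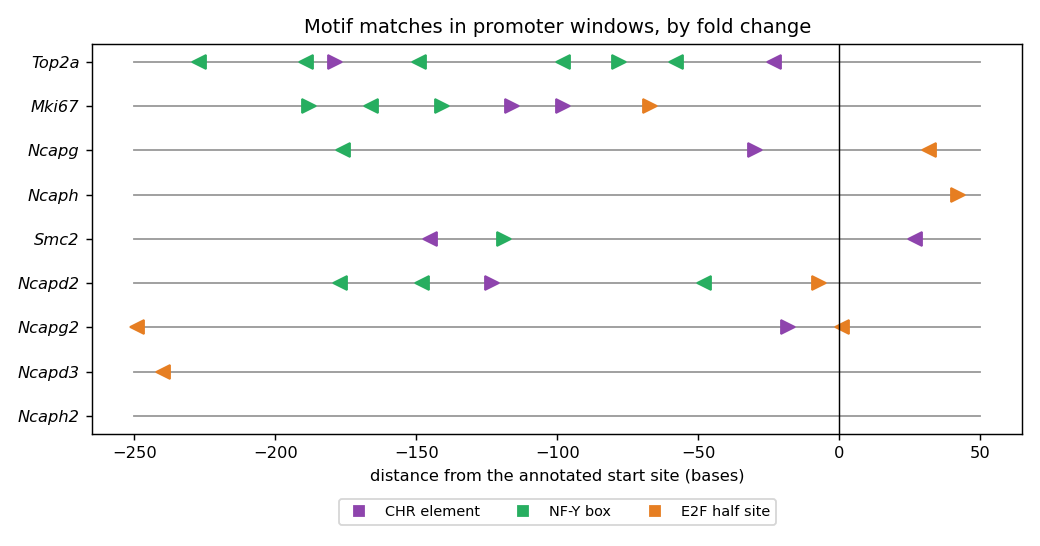
Motif matches in the promoter windows of 9 genes, ordered from the largest fold change at the top to the smallest at the bottom. The horizontal axis gives distance in bases from the annotated start, and arrowheads point right for a match on the strand of the gene and left for one on the other strand; for Ncapd3 the first of its 2 windows is drawn, and Ncaph2 has no match.

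All 10 genes were higher in PRC1 i2KO than in Control. Each passed edgeR's quasi-likelihood test at a Benjamini-Hochberg adjusted p under 0.05 over all 15665 genes (called here), and 0 were lower; an unadjusted p under 0.05 and DESeq2 gave the same counts. Of all tested genes, 33.9% were called, 18.8% higher and 15.1% lower. In all 10 genes every PRC1 i2KO library lay above both Control libraries, as was so for 30.0% of tested genes, while 29.4% of tested genes lay below both Controls in every PRC1 i2KO library. The differences ran from 1.67-fold for Ncaph2 to 18.8-fold for Top2a, and 9 of the 10 genes were at least 2-fold higher, as were 10.8% of tested genes. The median log2 fold change of the 10 was 2.13, against -0.01 for all tested genes. In bulk RNA a larger share of expressing cells and more RNA per cell cannot be told apart.

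**Figure D2:**
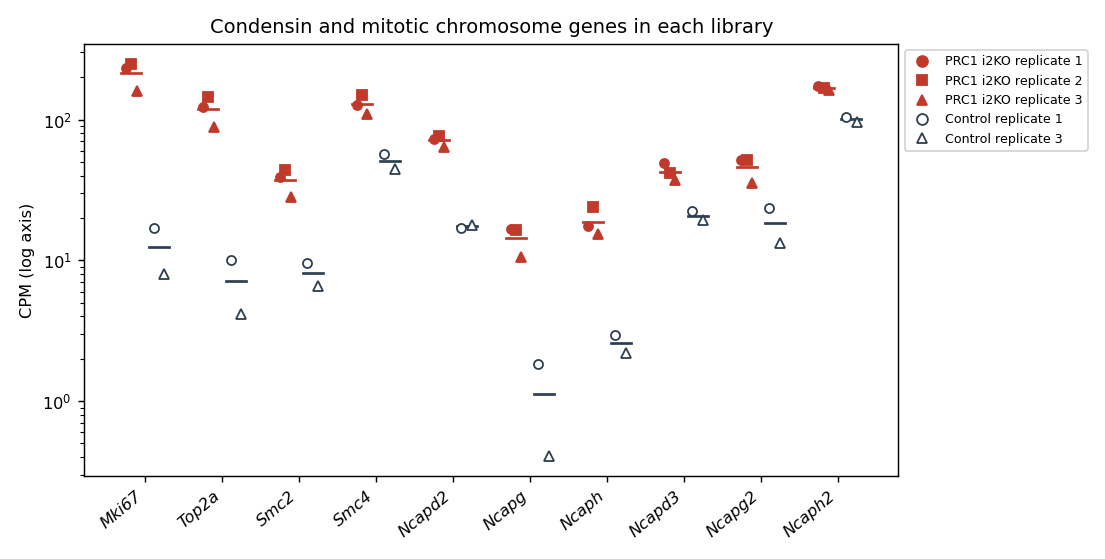
CPM (log axis) of the 10 genes in each of 3 PRC1 i2KO libraries (filled, left) and 2 Control libraries (open, right), with a bar at each group mean. The groups do not overlap in any gene; the gap is widest for Mki67 and Top2a and narrow for Ncapg2 and Ncaph2.

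Mki67 (ENSMUSG00000031004) had 234, 250 and 160 CPM in PRC1 i2KO replicates 1, 2 and 3, against 16.9 and 7.96 CPM in Control replicates 1 and 3. The lowest PRC1 i2KO library was at 9.49 times the level of the higher Control. The fitted log2 fold change was 4.21 (SE 0.44, edgeR adjusted p = 0.00194), which ranked 496 of 15665 genes from the largest rise. Top2a (ENSMUSG00000020914) had 123, 144 and 88.7 CPM in PRC1 i2KO and 10.1 and 4.14 CPM in Control, with no overlap. Its log2 fold change was 4.24 (SE 0.48, edgeR adjusted p = 0.00276), or 4.84 without Control replicate 1 and 3.55 without Control replicate 3. Top2a kept close to Mki67 in each library: its CPM was 52.7%, 57.8% and 55.4% of that of Mki67 in PRC1 i2KO and 59.9% and 52.0% of it in Control.

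The ATPase subunits that both condensins share rose as well, Smc2 with the larger fitted fold change; the difference between them was not tested. Smc2 (ENSMUSG00000028312) had 39.4, 44.0 and 28.4 CPM in PRC1 i2KO and 9.60 and 6.62 CPM in Control, a 4.73-fold rise (log2 fold change 2.24, SE 0.25, edgeR adjusted p = 0.000148). Smc4 (ENSMUSG00000034349) had 126, 148 and 110.2 CPM in PRC1 i2KO and 57.0 and 44.9 CPM in Control, a 2.54-fold rise (log2 fold change 1.34, SE 0.16, edgeR adjusted p = 0.000199). In both genes PRC1 i2KO replicate 3 was the lowest of its group and still lay above both Controls. Per length, Smc4 was the more abundant transcript in each library, at 62.0, 73.4 and 50.2 TPM (a relative abundance per unit of length) in PRC1 i2KO and 32.3 and 25.1 TPM in Control. Smc2 stood at 11.4, 15.6 and 11.1 TPM in PRC1 i2KO and at 4.36 and 2.21 TPM in Control.

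The subunits that belong to condensin I alone rose 4.06-fold to 16.5-fold. Ncapg, which encodes the HEAT-repeat subunit CAP-G, had the fewest reads of the 10 genes, with 15.0 and 13.3 estimated reads in Control replicates 1 and 3; it overlaps Lcorl on the opposite strand, so some reads could belong to either gene. Ncapg (ENSMUSG00000015880) had 16.7, 16.4 and 10.5 CPM in PRC1 i2KO, against 1.85 and 0.40 CPM in Control. The groups were far apart, but the 2 Controls differed 4.57-fold from each other. On the log2 scale the rise of Ncapg was 4.05 (SE 0.61, adjusted p = 0.00148 by edgeR); leaving out Control replicate 1 gave 5.14, and leaving out Control replicate 3 gave 2.96. Ncaph (ENSMUSG00000034906), for the kleisin CAP-H that closes the ring, had 17.5, 23.8 and 15.3 CPM in PRC1 i2KO and 2.95 and 2.21 CPM in Control. That was a 7.57-fold rise (log2 fold change 2.92, SE 0.31, edgeR adjusted p = 8.9e-05). Ncapd2 (ENSMUSG00000038252), for the other HEAT-repeat subunit, CAP-D2, had 73.1, 76.6 and 64.1 CPM in PRC1 i2KO and 17.1 and 17.9 CPM in Control. The 2 Controls were nearly level here, and the 4.06-fold rise had the smallest SE of the condensin I subunits (log2 fold change 2.02, SE 0.14, edgeR adjusted p = 6.79e-06). On log2(TPM + 0.1) the rise of Ncapd2 was smaller, at 1.384 (limma adjusted p = 0.00196).

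The subunits that belong to condensin II alone rose between 1.67-fold and 2.57-fold. Ncaph2 (ENSMUSG00000008690), for the kleisin CAP-H2, had 173, 167 and 162 CPM in PRC1 i2KO and 104 and 96.8 CPM in Control, so that each group was tight and the groups stood apart; its reads, too, could be shared, with Sco2 and Tymp on the opposite strand. The fitted log2 difference of Ncaph2 was 0.74 (SE 0.10, edgeR adjusted p = 0.000404). On the deposited TPM its difference was smaller and was not called (log2 fold change 0.35, limma adjusted p = 0.0549, on log2(TPM + 1)), where the median of all tested genes lay at -0.13. Ncapg2 (ENSMUSG00000042029), for CAP-G2, had 51.4, 51.9 and 35.2 CPM in PRC1 i2KO and 23.6 and 13.3 CPM in Control (log2 fold change 1.36, SE 0.29, edgeR adjusted p = 0.00982). Ncapd3 (ENSMUSG00000035024), for CAP-D3, had 48.8, 41.9 and 37.1 CPM in PRC1 i2KO and 22.4 and 19.2 CPM in Control (log2 fold change 1.04, SE 0.17, edgeR adjusted p = 0.00106). For Ncapg2 the lowest PRC1 i2KO library was only 1.49 times the higher Control, the narrowest gap among the 10 genes.

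**Figure D3:**
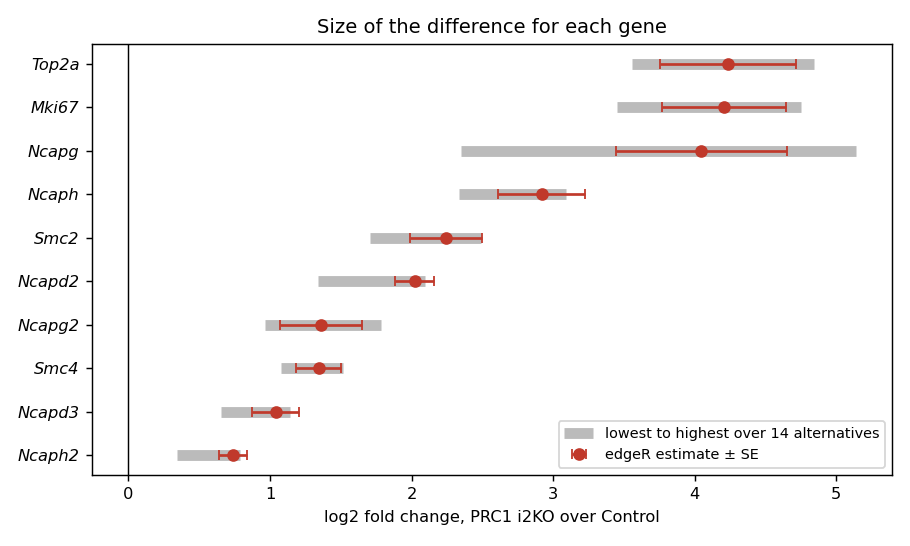
Log2 fold change of PRC1 i2KO over Control for each gene (points, with SE from edgeR) and its lowest to highest value over 14 other ways of processing the data (grey bars). Every bar lies above 0; that of Ncapg is the widest, from 2.35 to 5.14.

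Each condensin I subunit was then set against its counterpart in condensin II within each library, on the TPM scale, which compares levels per length. The ratio of Ncaph to Ncaph2 was 0.143, 0.143 and 0.108 in PRC1 i2KO, against 0.029 and 0.0182 in Control. The ratio of Ncapg to Ncapg2 was 0.344, 0.328 and 0.249 in PRC1 i2KO, against 0.0679 and 0.0259 in Control. The ratio of Ncapd2 to Ncapd3 was 2.76, 2.65 and 2.61 in PRC1 i2KO, against 1.49 and 1.85 in Control. In all 3 pairs each PRC1 i2KO library lay above both Controls, and the groups did not overlap. The mean log2 ratio was -2.94 ± 0.24 in PRC1 i2KO and -5.44 ± 0.47 in Control for Ncaph over Ncaph2, a difference of 2.5. It was -1.72 ± 0.25 in PRC1 i2KO and -4.57 ± 0.98 in Control for Ncapg over Ncapg2, a difference of 2.86. It was 1.42 ± 0.04 in PRC1 i2KO and 0.73 ± 0.23 in Control for Ncapd2 over Ncapd3, a difference of 0.68 (SD, n = 3 and n = 2, compared with the exact permutation test that follows). An exact two-sided permutation test over the samples, with the one-sided p doubled, gave p = 0.2 for each pair. It was 0.2 after Benjamini-Hochberg adjustment over the 3 pairs. With the doubling, 0.2 is the smallest p that the 10 splits of 3 libraries against 2 can give, so the test cannot pass 0.05 in this design. Without Control replicate 1 the shift of Ncapg over Ncapg2 was 3.55, and without Control replicate 3 it was 2.16.

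Summed over subunits, condensin II transcripts were the more abundant in each library of both groups. Summed TPM of the 3 condensin I subunits ran from 60.3 to 68.4 in PRC1 i2KO and from 18.3 to 20.7 in Control. Summed TPM of the 3 condensin II subunits ran from 140.6 to 146.1 in PRC1 i2KO and from 101.8 to 104.8 in Control, most of it from Ncaph2. In PRC1 i2KO the order of the sums rested on Ncaph2 (mean 105.2 TPM), whose reads could be shared with Sco2 and Tymp. The other condensin II subunits there, Ncapg2 (22.0) and Ncapd3 (16.6), were each below Ncapd2 of condensin I (44.2).

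**Figure D4:**
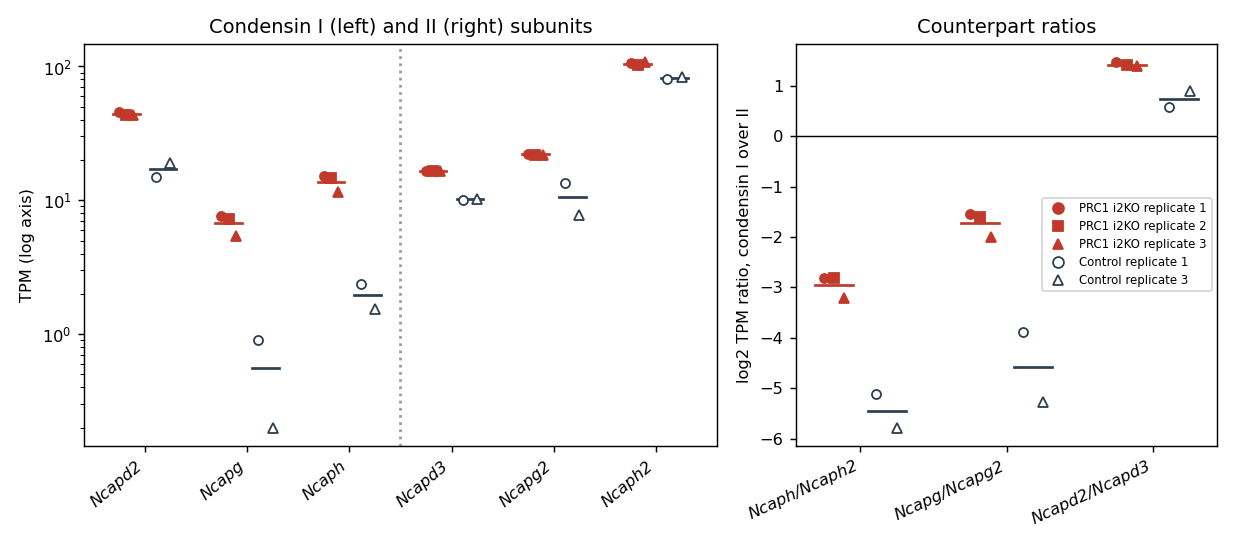
Left, TPM (log axis) of the condensin I and condensin II subunits in each PRC1 i2KO (filled) and Control (open) library, with bars at group means. Right, log2 ratio of each condensin I subunit to its condensin II counterpart; in all 3 pairs the PRC1 i2KO libraries sit above both Controls, and only the Ncapd2 to Ncapd3 ratio is above 0.

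The order of levels per length differed between the groups. In PRC1 i2KO the mean TPM ran from Ncaph2 (105.2) through Smc4 (61.9), Top2a (53.3), Ncapd2 (44.2), Mki67 (33.0), Ncapg2 (22.0), Ncapd3 (16.6), Ncaph (13.8) and Smc2 (12.7) to Ncapg (6.76). Of these neighbours the ranges over libraries overlapped for Smc4 and Top2a, for Top2a and Ncapd2, and for Ncaph and Smc2. In Control it ran from Ncaph2 (82.6) through Smc4 (28.7), Ncapd2 (17.0), Ncapg2 (10.6), Ncapd3 (10.2), Smc2 (3.29), Top2a (3.19), Mki67 (2.16) and Ncaph (1.95) to Ncapg (0.56). There the ranges overlapped for Ncapg2 and Ncapd3 and along the run from Smc2 to Ncaph. Top2a thus stood at place 3 of the 10 in PRC1 i2KO and at place 7 in Control, while Ncaph2 was first and Ncapg last in both groups.

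Set against Mki67, the genes differed in how closely they kept to it. Ncapg was at 7.14%, 6.55% and 6.54% of the Mki67 CPM in PRC1 i2KO and at 10.9% and 5.08% in Control, so that, as for Top2a, the groups overlapped. The other 7 condensin genes were lower relative to Mki67 in every PRC1 i2KO library than in either Control. Mki67 itself rose 18.4-fold, so a gene that rose less, or did not change, would tend to be lower relative to it. The share of all tested genes for which this was so was not computed, so the count is not particular to condensin genes. Ncaph, the nearest of these, was at 7.49%, 9.52% and 9.57% of Mki67 in PRC1 i2KO and at 17.5% and 27.7% in Control. Ncaph2, the farthest, was at 73.9%, 66.8% and 101.2% in PRC1 i2KO and at 617% and 1215% in Control. These percentages are of reads, not of transcripts per length.

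Libraries of a group also differed from each other, in the same order for most of the 10 genes. Control replicate 1 was above Control replicate 3 in 9 of the 10 genes, by 1.07 times for Ncaph2 up to 4.57 times for Ncapg, with Ncapd2 the exception (0.957 times). Among PRC1 i2KO libraries replicate 3 was the lowest in all 10 genes and replicate 2 the highest in 7. The shares of all tested genes with these orders were not computed, so the counts cannot be read as particular to these genes. The highest of the 3 was 1.07 times the lowest for Ncaph2 and 1.63 times for Top2a. Control replicate 1 was also the smallest library, at 8270419 estimated reads, and Control replicate 3 the largest, at 32463173. The 3 PRC1 i2KO libraries held from 9675996 to 21102727. With all libraries thinned to the smallest total, all 10 genes were again called higher.

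Kinases, cyclins and other proteins of mitotic chromosomes made up a list of 24 genes, some of which act on condensin and some of which, such as Banf1 and Hmgb2, bind chromatin in other roles. Of the 24 genes 19 rose and 5 did not pass, where 18.8% of all tested genes rose, and the median over the list was 3.05 on the log2 scale. By edgeR 0 fell (1 at an unadjusted p under 0.05 and 1 by DESeq2). Cdk1, the kinase that activates condensin at the entry into mitosis, had 16.9, 20.1 and 15.0 CPM in PRC1 i2KO and 2.95 and 0.72 CPM in Control. The edgeR estimate for Cdk1 was 3.52 on the log2 scale (SE 0.55, adjusted p = 0.00214), with 4.58 when Control replicate 1 was left out and 2.55 when Control replicate 3 was. Its cyclin partners Ccnb1 and Ccna2 rose 17.0-fold and 16.4-fold. Aurkb, the kinase of the chromosomal passenger complex, which helps to load condensin I, rose 9.77-fold (log2 fold change 3.29, SE 0.40, edgeR adjusted p = 0.000222), and Plk1, which phosphorylates condensin II, rose 9.19-fold. Kif4, a chromokinesin that works with condensin I on the chromosome axis, had 13.8, 13.96 and 8.90 CPM in PRC1 i2KO and 0.37 and 0.44 CPM in Control, a 28.8-fold rise. Its size depended on the scale: the log2 value of 4.85 for Kif4 from the counts was 3.43 on log2(TPM + 0.1) and 1.92 on log2(TPM + 1). On log2(TPM + 0.1) Aurkb was at 2.35 in place of 3.29 and Plk1 at 2.53 in place of 3.20, and all 3 genes were still called. Mcph1, an inhibitor of condensin II, rose 3.17-fold (log2 fold change 1.67, SE 0.35, edgeR adjusted p = 0.00513), a call that ended on log2(TPM + 1) with no filter (limma adjusted p = 0.0859).

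Cohesin, the SMC complex that holds sister chromatids together, is the relative of condensin that was looked at next. Of 17 genes of cohesin and its regulators 5 rose, 1 fell and 11 did not pass, with a median log2 fold change of 0.04. Of all tested genes 33.9% were called in either direction, so the count for this list is near the background. Of the 5, 4 act in S phase or mitosis, whereas Pttg1, for the mitotic protein securin, is among the 11 that did not pass. Named after its values were seen, Pttg1 had 16.9, 15.8 and 14.6 CPM in PRC1 i2KO and 21.4 and 15.2 CPM in Control. Its log2 fold change was -0.20 (edgeR adjusted p = 0.497). Esco2, the acetyltransferase that establishes cohesion, rose 14.7-fold; on the log2 scale this was 3.88, with 4.48 when Control replicate 1 was left out and 3.09 when Control replicate 3 was. Cdca5, for sororin, which protects cohesion, rose 11.4-fold, or 3.51 on the log2 scale, with 5.32 when Control replicate 3 was left out, and Espl1, for separase, rose 4.85-fold, or 2.28 on the log2 scale, with 3.22 on log2(TPM + 0.1). Sgo1, for the shugoshin that guards centromeric cohesin, had 0 reads in both Controls and 251 in PRC1 i2KO (6.74, 5.22 and 3.95 CPM), which is at least 67.5-fold higher when Control is set to a floor of 3 reads over the group. With Sgo1 at that bound the median of the list is the same. The fifth, Smc1a, named after its values were seen, is a ring subunit and rose 1.46-fold (log2 fold change 0.54, SE 0.11, edgeR adjusted p = 0.00457), which did not pass on log2(TPM + 1) (limma adjusted p = 0.0795). The loader gene Mau2 was at 93.2, 95.8 and 98.8 CPM in PRC1 i2KO and 126 and 120.1 CPM in Control (log2 fold change -0.36, edgeR adjusted p = 0.0168). Leaving out any library other than PRC1 i2KO replicate 3 ended this call, with adjusted p from 0.062 to 0.107, as did log2(TPM + 1), with a limma adjusted p of 0.194.

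The other SMC complex and the topoisomerases were short lists, to be read against 18.8% of all tested genes called higher and 15.1% called lower. Of 9 genes of the SMC5/6 complex, which acts in DNA repair, 0 were called by edgeR, by DESeq2 or at an unadjusted p under 0.05, with a median log2 fold change of 0.21. Without PRC1 i2KO replicate 3, 1 of them, Smc6, named after its values were seen, was called higher. Of 7 genes of topoisomerases and their repair, 0 were called higher by edgeR (1 at an unadjusted p under 0.05, and 1, Top1, by DESeq2 and without Control replicate 1, also named after its values were seen). Top3b, for a topoisomerase that also acts on RNA, was the 1 of the 7 called lower, a share near that background, at 66.8, 76.4 and 83.8 CPM in PRC1 i2KO and 117 and 112.0 CPM in Control (log2 fold change -0.59, edgeR adjusted p = 0.00337). Top2b, the paralog of Top2a that non-dividing cells also use, had 230, 238 and 186 CPM in PRC1 i2KO and 202 and 222 CPM in Control. The groups overlapped, and the log2 fold change was 0.04 (SE 0.12, edgeR adjusted p = 0.841). Its sign turned on the deposited TPM, with a log2 fold change of -0.43 (limma adjusted p = 0.0409) where the median of all tested genes lay at -0.13.

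**Figure D5:**
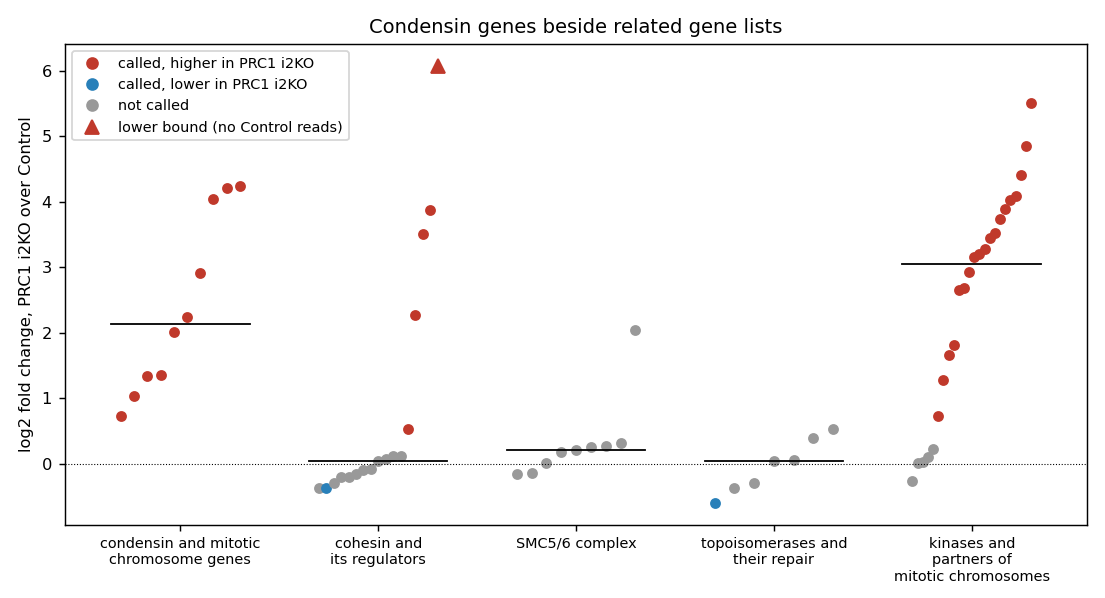
Log2 fold change of PRC1 i2KO over Control for each tested gene of the 10 and of 4 related lists, coloured by edgeR call, with a line at each list's median. The median is 2.13 for the 10 genes and 3.05 for the kinases and partners, and from 0.04 to 0.21 for the other 3 lists; the triangle marks Sgo1 at its lower bound.

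Genes whose profile over the 5 libraries lay closest to those of the 10 were found by the root mean square difference of centred log2 CPM. The comparison covered 12397 genes outside the 10 that averaged 1 CPM or more. Genes without a symbol, or named by a Gm number or as a Rik clone, were left out of it. The nearest to Mki67 were Sowahb (0.063), Runx2 (0.125), Kif23 (0.13), Grhl3 (0.131) and Ly6e (0.134). Of these Kif23 encodes a kinesin of cytokinesis, Runx2 and Grhl3 are transcription factors, and Ly6e is a surface protein gene. Sowahb had a single Control read, so its closeness rests on few reads. A prior count of 2 in the log2 CPM also narrows the differences of genes with few reads. The fitted log2 fold change was 6.21 for Sowahb and 4.21 for Mki67. Among the nearest to the mean profile of the 10 were Hells (0.0518), a chromatin remodeller, Trp53inp2 (0.0753), Nlrc5 (0.0812) and Tifa (0.0906). Tifa had 7 reads over both Controls, so its place, too, rests on few reads. Of the neighbours named here Hells and Kif23 are known for roles in DNA replication or cell division.

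Markers of other cell types also moved between the same groups. The gate would leave out cells without EpCAM, such as fibroblasts, endothelial cells and most immune cells, as well as suprabasal cells with low α6-integrin and upper follicle cells with Sca1. All 8 upper follicle markers rose (6142 to 6871 CPM in PRC1 i2KO, 442 to 612 CPM in Control). All 8 sebaceous markers rose (3124 to 3689 CPM in PRC1 i2KO, 483 to 496 CPM in Control), as did all 8 suprabasal markers (2611 to 3798 CPM in PRC1 i2KO, 1236 to 1242 CPM in Control). Of 9 hair germ and matrix markers, 8 of them tested, 3 rose and 1 fell (449 to 595 CPM in PRC1 i2KO, 418 to 452 CPM in Control). Most of that sum came from Cdh3 and Gata3, which were not called, and the 3 that rose, named after their values were seen, were less abundant. Lef1, a transcription factor of the germ and matrix, had 40.9, 49.1 and 67.6 CPM in PRC1 i2KO and 9.35 and 6.5 CPM in Control, a 6.89-fold rise. Foxn1, a regulator of hair differentiation, had 2.90, 3.15 and 2.00 CPM in PRC1 i2KO and 0.37 and 0.19 CPM in Control, a call that ended without Control replicate 3 (edgeR adjusted p = 0.0528). Shh, the hedgehog ligand, had 140 reads in PRC1 i2KO and 1 in Control, a ratio of 113 with a 95% counting interval of 19.9 to 4494. Hoxc13 was the 1 that fell, at 23.5, 18.6 and 24.7 CPM in PRC1 i2KO and 30.4 and 32.6 CPM in Control (edgeR adjusted p = 0.0426). Dlx3 and Msx2 also had log2 fold changes below 0 (-1.50 and -0.63) but were not called. Hoxc13, Dlx3 and Msx2, too, were named after their values were seen. Of 7 immune markers, 4 of them tested, 2 rose (79.8 to 117 CPM in PRC1 i2KO, 25.8 to 31.4 CPM in Control), and Lyz2, which macrophages express strongly, was at 0 in all libraries. The 2 that rose were Cd74 and H2-Aa. Most of the sum came from Cd74, at 83.2, 96.3 and 64.3 CPM in PRC1 i2KO and 22.6 and 19.1 CPM in Control. Ptprc and Cd207 were not called (log2 fold change -0.05 and 0.20). These immune genes were named after their values were seen. Of 7 fibroblast markers, 5 of them tested, 2 rose and 3 fell (42.6 to 46.9 CPM in PRC1 i2KO, 76.3 to 79.9 CPM in Control). Of 6 melanocyte markers, 4 of them tested, 2 rose and 1 fell (66.5 to 72.4 CPM in PRC1 i2KO, 156 to 167 CPM in Control). The lower sum came from Mitf, at 39.1, 41.2 and 41.0 CPM in PRC1 i2KO and 163 and 151 CPM in Control, whereas Dct rose 8.51-fold and Kit 9.49-fold (for Kit 3.25 on the log2 scale, and 4.34 without Control replicate 3); these genes, too, were named after their values were seen. The 5 endothelial markers, 2 of them tested, summed to 0 to 3.90 CPM in PRC1 i2KO and 0.96 to 1.97 CPM in Control. The part of these markers and of the fall in bulge markers in the levels of the condensin genes was not tested.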

How the data were processed

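The authors deposited 1 table with a column of counts and a column of TPM for each of 5 libraries. The deposited counts are expected counts, since 9.06% of genes hold a value that is not whole. The deposited TPM are relative abundances per length, from which depth cannot be read. STAR 2.7.9a, RSEM 1.3.3, DESeq2 1.38.2 and build mm39 appear in the submitters' processing notes, with no role given for any. Neither strandedness nor the gene annotation is given in the sources used here, so reads shared with overlapping genes are uncertain: in GENCODE M21, on another build, Ncapg overlaps Lcorl, and Ncaph2 overlaps Sco2 and Tymp, on the opposite strand. Per the labels' protocols, RNA of 50000 sorted cells was used, and 50 ng of RNA with an integrity number above 8 went into polyadenylate-selected libraries. The control called replicate 3 has that number in its title and column name and another in its description.

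Counts were rounded, filtered with filterByExpr, scaled with TMM factors (0.983 to 1.02) and passed to edgeR 4.0.16 under R 4.3.3 (robust quasi-likelihood F test, genotype as the only term, 5 libraries, Benjamini-Hochberg over 15665 genes, called at an adjusted p under 0.05). CPM use the same scaling, SE is the size of the log2 fold change over the square root of F, and n is 3 for PRC1 i2KO and 2 for Control. The fit was tested on simulated counts. Alternatives used DESeq2 1.42.0, limma 3.58.1 on log2(TPM + 1) or log2(TPM + 0.1), other filters and scalings, thinning to 8270407 reads, a replicate term and leaving out each library. A chi-square statistic set all pairs of libraries apart by more than sampling noise (at least 9.8 per degree), so each was counted once. This cannot show whether the libraries came from separate animals. Floors cover counting error only. The genes, the related lists, the markers and the motifs were chosen with earlier results of these data known. Genes named beyond the 10 were Ring1, Rnf2, Mcph1, Cdk1, Aurkb, Plk1, Kif4 and Top2b, up to 4 called genes per related list and direction with the smallest adjusted p, and the 5 nearest profiles to Mki67 and to the mean of the 10; in the list of 24 kinases and partners these were Kif4, Ccnb1, Ccna2 and Plk1. One gene that this rule names is not reported here. A gene from outside the rule is introduced as such.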

Additional observations from a re-analysis of the deposited data

How the results depend on the processing

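Under 14 alternatives the 10 genes were each higher in PRC1 i2KO, and 137 of 140 results stayed called. The 3 that did not were Ncaph2 on the deposited TPM (limma adjusted p = 0.0549 on log2(TPM + 1), 0.0538 on log2(TPM + 0.1) and 0.0799 with no filter). With any 1 library left out all 10 stayed called, with a largest adjusted p of 0.0318, for Ncapg2. Fits that keep 1 Control assume that it varies like the PRC1 i2KO libraries. For Ncapd2 the log2 fold change was 1.34 on log2(TPM + 1) in place of 2.02; its reads per TPM, relative to the median gene of each library, were 1.14, 1.26 and 1.10 in PRC1 i2KO and 0.923 and 0.763 in Control. On log2(TPM + 1), which understates low genes, Ncapg was at 2.35, Mki67 at 3.45 and Ncaph at 2.33. The shift of the pair ratios kept its sign throughout: it was 2.12, 2.68 and 0.99 on CPM for Ncaph over Ncaph2, Ncapg over Ncapg2 and Ncapd2 over Ncapd3.

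On TPM, 1866, 1881 (pseudocount 0.1) and 1410 (no filter) of all genes were called higher in place of 2939, and 45.8%, 47.8% and 47.1% of calls were rises in place of 55.4%. Calls of all genes ran from 1963 to 3099 higher and from 1359 to 2757 lower with 1 library left out, the 1359 without Control replicate 3. Among cohesin genes 0 were lower on each TPM scale, 2 with no filter on counts and 0 to 1 with 1 library left out. Topoisomerase genes called higher numbered 1 by DESeq2 and with no filter and 0 to 1 with 1 library left out; 2 were called lower on log2(TPM + 1) and log2(TPM + 0.1). SMC5/6 genes called higher and kinases and partners called lower were 0 to 1 with 1 library left out, and 1 kinase or partner was lower by DESeq2. The log2 fold change of Top2b, 0.04 and not called, was -0.43 on each of the 3 TPM scales (limma adjusted p = 0.0409, 0.041 and 0.066), -0.036 with the replicate block and from -0.0287 (without Control replicate 1) to 0.145 (without PRC1 i2KO replicate 3) with 1 library left out; it was also below 0 without PRC1 i2KO replicate 2. The cause of these changes was not tested.

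The numbers 1 and 3 shared by titles of the groups were also used as a replicate block. Deviations of same-numbered libraries from their group means correlated at 0.0737 and 0.115 across genes, over 2 pairs only, and the labels tie the numbers to no animal or day. The deviations of the 2 Controls are the reverse of each other, so these 2 correlations are not independent. With the block 2521 genes were higher and 1900 lower, all 10 condensin and chromosome genes were called, 1 topoisomerase gene was higher, 1 cohesin gene, Pds5b in place of Mau2, was lower, and the pair shifts were 2.43, 2.80 and 0.69. Of 47 named genes Rnf2, Mau2 and Tifa lost their call under the block (adjusted p = 0.104, 0.0521 and 0.102). Depth limits Ncapg most, with 28.3 estimated reads over both Controls.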
